A study of Mus musculus with 2 samples.

Results

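The genes described here are the 10 genes that drive cells through G1 and into S phase, chosen by name: the D cyclins Ccnd1, Ccnd2 and Ccnd3, the kinases Cdk4, Cdk6, Cdk2 and Cdk7, the E cyclins Ccne1 and Ccne2, and the phosphatase Cdc25a. All 10 were found among the 34745 genes of the deposited tables, and all had at least 10 reads over both libraries, as 13689 genes did. Their RNA was measured by RNA-seq in bone marrow (BM) LSKs, the lineage-negative, Sca1-positive and c-Kit-positive fraction that holds hematopoietic stem and early progenitor cells. The mice were Scl/tTA-BA double transgenics on the C57BL/6 background, in which regulatory sequences of Scl drive the transactivator tTA, and tTA turns on BCR/ABL (BA) once doxycycline is removed. Both groups carried both transgenes: week-0 mice were still on doxycycline, and week-3 mice had been without it for 3 weeks, so time and loss of the drug go together with BA. The age of the mice is not given in the labels. Each time point is 1 library of LSKs for which 3 mice were mixed, so there is no replicate, no spread between mice is known, and every difference given here is between 2 libraries.

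In G1, D cyclins respond to growth factors and join Cdk4 or Cdk6, which begin to phosphorylate the retinoblastoma protein and so release E2F transcription factors. E2F factors raise the E cyclins, which activate Cdk2 at the start of S phase. Cdc25a removes the inhibitory phosphates from Cdk2, and Cdk7, in a complex with cyclin H and Mat1, adds the activating phosphate to the cell cycle kinases. Stem cells in the marrow rest outside the cycle for long times, and Cdk6 is known as a kinase that sets how fast they leave that rest.

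Reads on genes summed to 6356164 at week-0 and to 3886695 at week-3, so the limit that a count of 0 allows, 3 reads, was 0.472 and 0.772 RPM (reads of a gene scaled to the total of the library, as in FPKM but without length). The libraries differed in cell type markers. All 10 LSK markers were present in both libraries and 9 of 10 were lower at week-3 with their whole counting interval, with Kit at an FPKM of 16.9 and then 11.5 and Ly6a, which encodes Sca1, at 19.8 and 14.8. Granulocyte genes went from 3492 to 16414 RPM over the list, with 9 of 10 at least 2 times higher. Elane, Mpo, Prtn3 and Ctsg had the most reads of that list and were already at an FPKM of 189 to 933 at week-0. The remaining gene, Ly6g, had 5 reads in each library, so the sum does not show that mature granulocytes were present. Mast cell and basophil genes went from 388 to 4192, with 9 of 10 at least 2 times higher and Tpsb2 and Mcpt4 at 0 reads at week-0. Prss34, with the most reads of that list at week-0 (1300), went the other way, from an FPKM of 168 to 80.4. The summed level of B lineage and plasma cell genes went from 890 to 32.9 RPM (6 of 7 with enough reads at least 2 times lower), that of erythroid genes from 814 to 140 (6 of 8) and that of immediate-early genes from 29376 to 9303 (7 of 8). The erythroid gene Tfrc rose instead, from an FPKM of 2.28 to 6.35. T cell genes had at most 20 reads each apart from Lck, with Cd3e and Cd8a at 0 at week-3, and megakaryocyte genes went from 360 to 241. The part of these shifts in the changes of the G1 genes was not tested. Reads on Bcr and Abl1 numbered 371 and 395 at week-0 and 108 and 144 at week-3, and whether transgene reads map to these mouse genes is not stated, so the tables do not check the induction of BA.

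Of the 10 genes, 3 were at least 2 times higher at week-3 (Ccne1, Ccne2 and Cdc25a) and 1 was at least 2 times lower (Ccnd3). Among all 13689 genes with at least 10 reads, 11.9% were at least 2 times higher and 17.9% at least 2 times lower. With limits of 1.5 times and 0.67 times, Cdk6 and Cdk7 joined the higher genes, 5 of 10 in all, against 24.6% of all genes, and Ccnd3 was again the lower gene, against 27.0%. The median log2 ratio of the 10 genes, week-3 over week-0, was 0.51, where all genes had a median of 0.05 and quartiles of -0.65 and 0.57. The whole 95% interval lay above 0 for 6 of the 10 genes and below 0 for 3, against 31.7% and 27.3% of all genes. A ratio here is that of the FPKM, which divides the fragments of a gene by its exon length and by the size of the library, and equals that of reads per total reads. Its 95% interval is the exact Clopper-Pearson interval of the week-3 share of a gene's reads, and it holds the error of counting reads alone. Amplified cDNA can give several reads from 1 molecule, which the interval leaves out, so it can be too narrow. As in any bulk sample, more cells of a type and more RNA per cell cannot be told apart. TMM scaling (trimmed mean of M-values) lowered every log2 ratio by 0.11, which moved no G1 gene across the limit of 2 times.

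**Figure D1:**
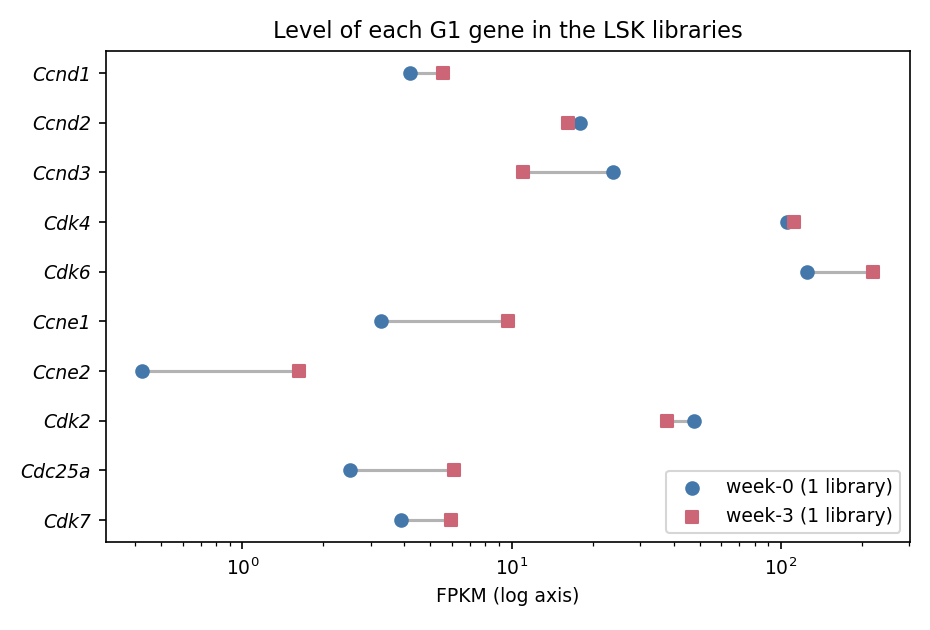
FPKM (log axis) of the 10 G1 genes at week-0 (circles) and week-3 (squares), 1 library each, joined by a line. Cdk6 and Cdk4 lie above an FPKM of 100 in both libraries, and Ccne2 moves from 0.424 to 1.62.

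The D cyclins did not move together. Ccnd3, the D cyclin with the most reads in the week-0 LSKs, fell most. It had 2473 reads (FPKM 23.9) in the week-0 library and 697 reads (FPKM 11.02) in the week-3 library. This is 2.17 times lower, a log2 ratio of -1.12 (95% interval -1.24 to -0.996), at percentile 15.9 of all genes. Ccnd3 (ENSMUSG00000034165) is a protein-coding gene on the plus strand of chr17:47505051-47599691 of GRCm38. Its exons overlap those of Bysl on the other strand by 361 bases, and Bysl had 281 and 261 reads, fewer than Ccnd3 in both libraries. Another 3 and 5 reads were counted on Ccnd3-ps, a processed pseudogene that is 96.3% identical to Ccnd3 over 881 bases.

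Ccnd2 had 1414 reads (FPKM 18.0) in the week-0 library and 776 reads (FPKM 16.2) in the week-3 library. Its log2 ratio of -0.16 (interval -0.28 to -0.03) lies close to the median of all genes, at percentile 40.9. Ccnd1, the D cyclin best known from mitogen signalling, was the least abundant D cyclin. Its FPKM was 4.19 from 112 reads at week-0 and 5.56 from 91 reads at week-3. The log2 ratio of 0.41 has an interval from -0.0052 to 0.82, so a rise of Ccnd1 was not detectable at this depth. Exons of Ccnd1 share 1100 bases with Oraov1 on the other strand, which had 58 and 46 reads, and the kit is not stated to keep the strand.

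The summed FPKM of the D cyclins went from 46.1 to 32.7, a ratio of 0.71. Ccnd3 made up 51.9% of this sum at week-0 and 33.7% at week-3. Ccnd2 went from 39.1% to 49.4% and Ccnd1 from 9.08% to 17.0%. By FPKM, the leading D cyclin was therefore Ccnd3 at week-0 and Ccnd2 at week-3. With merged GENCODE M21 exon lengths, Ccnd3 went from 61.8% to 43.8% and Ccnd2 from 33.0% to 45.5%, close to a tie at week-3. The GENCODE M21 transcript with the longest coding sequence has 2113 bases for Ccnd3 and 6330 for Ccnd2. With those lengths Ccnd3 would stay above Ccnd2 at week-3, so their order at week-3 depends on the length used. The ratio of 2 genes within a library does not depend on how the libraries are scaled to each other, and 7 such pairs were compared within families. Relative to Ccnd3, Ccnd2 rose by 1.95 times (exact 95% interval of the odds ratio 1.72 to 2.20) and Ccnd1 by 2.88 times (2.13 to 3.89). Relative to Ccnd2, Ccnd1 rose by 1.48 times (1.09 to 1.998).

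**Figure D2:**
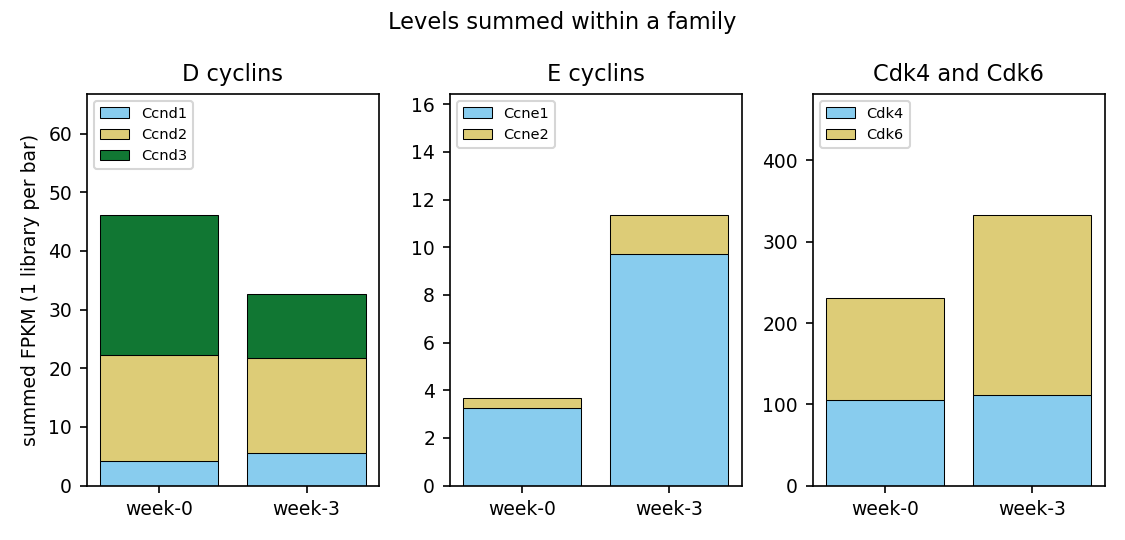
Summed FPKM of the D cyclins, the E cyclins and the pair Cdk4 and Cdk6 at week-0 and week-3, 1 library per bar, stacked by gene. The D cyclin sum goes from 46.1 to 32.7 with the loss in Ccnd3, the E cyclin sum from 3.69 to 11.3 and the kinase sum from 231 to 333 with the gain in Cdk6.

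Cdk6, a partner of D cyclins with known roles in blood progenitors, had the most reads of the 10 genes in both libraries. It had 13628 reads (FPKM 125) in the week-0 library and 14674 reads (FPKM 220) in the week-3 library, more reads in the smaller library. By FPKM it ranked 403rd of 13689 genes at week-0 and 242nd at week-3. The log2 ratio was 0.82 (interval 0.78 to 0.85), or 1.76 times, at percentile 83.5. Cdk6 (ENSMUSG00000040274) lies on the plus strand of chr5:3341485-3531008, and its exons share 368 bases with the antisense gene Gm17590, which had 14 and 10 reads.

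Cdk4, the other kinase of the D cyclins, had 4276 reads (FPKM 105) in the week-0 library and 2782 reads (FPKM 112) in the week-3 library. Its log2 ratio of 0.09 (interval 0.02 to 0.16) became -0.02 under TMM and 0.00016 when libraries were scaled by the median of ratios, so no direction can be given. Its exons overlap 641 bases of Tspan31 on the other strand, with 287 and 205 reads. Within the library, Cdk6 rose relative to Cdk4 by 1.65 times (1.57 to 1.75), from an FPKM ratio of 1.19 to one of 1.97. Of its cyclin partners, Cdk6 rose by 1.96 times against Ccnd2 (1.79 to 2.15) and 3.82 times against Ccnd3 (3.50 to 4.17), while against Ccnd1 the change was 1.33 times, with an interval from 0.995 to 1.77 that includes no change. The pairs of genes from different families are 8 in number and were chosen after the values were seen.

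Cdk2, the kinase of the E cyclins, went the other way. It had 736 reads (FPKM 47.6) in the week-0 library and 357 reads (FPKM 37.8) in the week-3 library. The log2 ratio was -0.33 (interval -0.52 to -0.15), at percentile 34.3, between the quartiles of all genes. Within the library, Cdk6 rose relative to Cdk2 by 2.22 times (1.95 to 2.53) and Cdk4 relative to Cdk2 by 1.34 times (1.17 to 1.54). Cdk2 (ENSMUSG00000025358) is on the minus strand of chr10:128697939-128705051.

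Levels of different genes can be compared only as far as the exon lengths behind the FPKM allow. The exon model implied by reads and FPKM was 6385 bases for Cdk4, longer than the 4387 bases that the gene spans in the genome, and 2432 bases for Cdk2, whose merged exons in GENCODE M21 are 6219 bases long. With merged GENCODE M21 exons as the length, levels in the unit of FPKM at week-0 were 207 for Cdk4, 153 for Cdk6 and 18.6 for Cdk2. The ratio of Cdk6 to Cdk4 was then 0.74 at week-0 and 1.23 at week-3. Thus Cdk6 was above Cdk4 at week-3 with either of these lengths, while their order at week-0 turned with the length. The GENCODE M21 transcript with the longest coding sequence has 11525 bases for Cdk6 and 2053 for Cdk4. With those lengths Cdk6 would lie slightly below Cdk4 at week-3, so that order is not settled either. The ratio of 1 gene between the libraries is not touched by this.

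**Figure D3:**
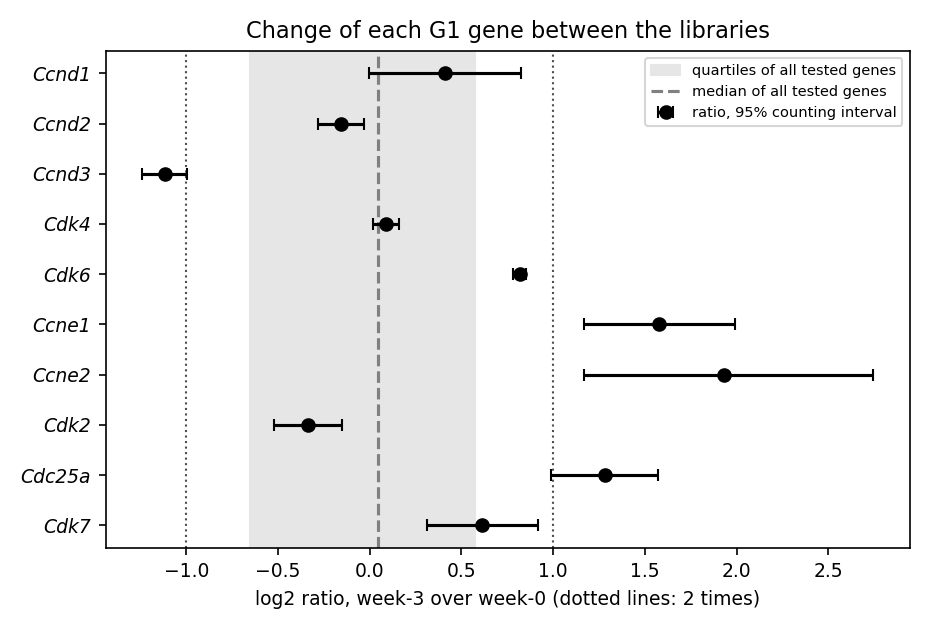
log2 ratio of week-3 over week-0 for each G1 gene, with the 95% counting interval. The shaded band runs from the lower quartile of all 13689 genes, -0.65, to the upper, 0.57, the dashed line is their median of 0.05, and dotted lines mark 2 times. Ccne1, Ccne2 and Cdc25a lie beyond 2 times on the right and Ccnd3 on the left.

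The E cyclins, which turn on Cdk2, showed the largest changes of the 10 genes. Ccne1 had 78 reads (FPKM 3.27) in the week-0 library and 142 reads (FPKM 9.72) in the week-3 library. This is 2.98 times higher, with a log2 ratio of 1.57 (interval 1.17 to 1.99), at percentile 94.9 of all genes. Ccne2 had 21 reads (FPKM 0.424) in the week-0 library and 49 reads (FPKM 1.62) in the week-3 library. Its log2 ratio of 1.93 has an interval from 1.17 to 2.74, wide because of the few reads. With a pseudocount of 1 added to the FPKM, the log2 ratio of Ccne2 was 0.88, under the limit of 2 times. Ccne2 exons share 609 bases with Ints8 on the other strand, which had 61 and 45 reads, more than Ccne2 at week-0, so the level of Ccne2 is uncertain.

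Ccne1 made up 88.5% of the summed FPKM of the E cyclins at week-0 and 85.7% at week-3. The ratio of Ccne2 to Ccne1 within the library changed by 1.28 times, with an interval from 0.695 to 2.42, so no difference between them was detectable. The sum rose from an FPKM of 3.69 to 11.3, a ratio of 3.07. The sum of the D cyclins was 12.5 times that of the E cyclins at week-0 and 2.89 times at week-3. Relative to its kinase Cdk2, Ccne1 rose by 3.75 times (2.74 to 5.15), and relative to Ccnd3 by 6.45 times (4.80 to 8.73).

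Cdc25a, the phosphatase that frees Cdk2 from inhibitory phosphate, was also among the genes at least 2 times higher. It had 165 reads (FPKM 2.51) in the week-0 library and 245 reads (FPKM 6.11) in the week-3 library. The log2 ratio was 1.28 (interval 0.99 to 1.57), or 2.43 times, at percentile 92.2. Within the library, Cdc25a rose by 3.06 times relative to Cdk2 (2.41 to 3.90). Cdc25a (ENSMUSG00000032477) lies on the plus strand of chr9:109875579-109893895, and no other gene of GENCODE M21 shares its exons.

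Cdk7, the kinase that activates other cell cycle kinases, had 188 reads (FPKM 3.89) in the week-0 library and 176 reads (FPKM 5.96) in the week-3 library. The log2 ratio was 0.61 (interval 0.31 to 0.92), or 1.53 times, at percentile 76.6. Its partner Ccnh, which encodes cyclin H, had a log2 ratio of 0.55 (0.34 to 0.76), from an FPKM of 13.0 to 19.0. The assembly factor Mnat1 (Mat1) had -0.14 (-0.50 to 0.21). Cdk7 changed by 1.05 times relative to Ccnh (0.81 to 1.36) and rose by 1.68 times relative to Mnat1 (1.22 to 2.34). Cdk7 with TMM scaling was at 0.50, a ratio under 1.5 times.

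**Figure D4:**
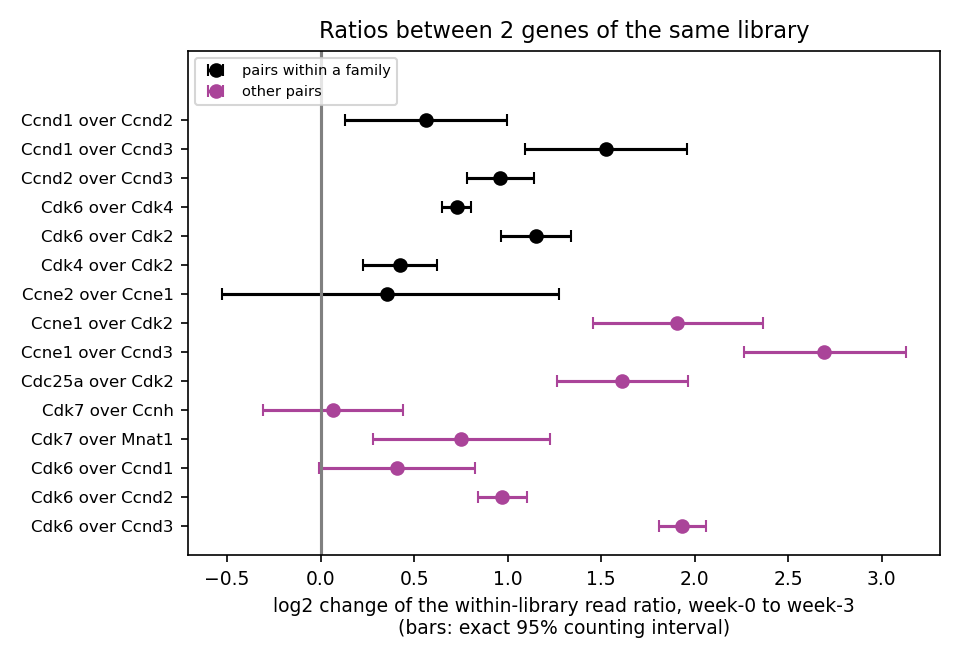
log2 change, from week-0 to week-3, of the ratio of reads between 2 genes of the same library, with exact 95% counting intervals. Black points are the 7 pairs within a family and purple points the 8 other pairs; the intervals of Ccne2 over Ccne1, Cdk7 over Ccnh and Cdk6 over Ccnd1 include 0.

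The study placed Ccne1, Ccne2, Cdk6 and Cdk7 in a network of predicted miRNA targets, so the seed sites of miRNAs it names, and of miR-16, which shares the seed of miR-15a, were sought in these genes. The RefSeq mature strands (GRCm38.p6) are shown 5′ to 3′ with the seed, bases 2 to 8, in capitals, since miR-15a and miR-16 share their seed and the others have their own.
mmu-miR-15a-5p: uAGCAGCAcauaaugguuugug
mmu-miR-16-5p: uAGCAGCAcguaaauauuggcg
mmu-miR-29c-3p: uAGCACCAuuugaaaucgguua
mmu-miR-30c-5p: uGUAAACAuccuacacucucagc
mmu-miR-34a-5p: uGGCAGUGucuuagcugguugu

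Perfect matches of 7 bases to the seed were searched in 1 GENCODE M21 3' UTR per gene, that of the transcript coding for the longest protein. A miR-15a and miR-16 site was found in 6 of the 10 genes, namely all D cyclins, Cdk6, Ccne1 and Cdc25a, and in 18.8% of all 20072 UTRs. UTR length was not matched, and that of Cdk6, at 10217 bases, is far longer than the median of 839. Genes with a site include Ccne1 and Cdc25a, at least 2 times higher, and Ccnd3, at least 2 times lower. The 6 genes with a site had log2 ratios from -1.12 to 1.57 (median 0.61), and the 4 without one from -0.33 to 1.93 (median 0.35). The part of these miRNAs in the ratios was not tested. A site of miR-29c was in Ccnd2, Cdk2 and Cdk6 (12.1% of UTRs), one of miR-181a in Cdk6 and Cdc25a (15.3%), one of miR-34a in Cdk6 and Ccne2 (13.2%) and one of miR-30c in Ccne2 (12.9%). One of miR-146a was in Ccnd2 (10.3%), while miR-130a (9.23%) and miR-125b (12.2%) had none in these genes. Cdk7 and Cdk4 held no site of these miRNAs in the UTR searched.

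The first site of miR-15a and miR-16 in Ccne1, Cdc25a, Cdk6 and Ccnd3 and the first miR-30c site of Ccne2 are shown 5′ to 3′ on the gene's strand, with the 7 matched bases in capitals. Further miR-15a and miR-16 sites start at bases 5177 and 5180 of the Cdk6 UTR and at base 651 of that of Cdc25a. Another miR-30c site starts at base 1312 of the Ccne2 UTR. They lie at chr7:38098022-38098044 (minus strand) for Ccne1, chr9:109892551-109892573 (plus) for Cdc25a, chr5:3524531-3524553 (plus) for Cdk6, chr17:47599280-47599302 (plus) for Ccnd3 and chr4:11203334-11203356 (plus) for Ccne2, all on GRCm38 and in the 3' UTR. A match is a description of the sequence and does not show that the miRNA acts on it.
Ccne1: tcttattttgtaagTGCTGCTat
Cdc25a: aaaagccgcccaagTGCTGCTgg
Cdk6: caagttgcacagggTGCTGCTat
Ccnd3: actgttgctttgctTGCTGCTta
Ccne2: tataaaagagaactTGTTTACaa

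Promoters were searched because several of the genes are textbook targets of E2F or Myc. The RefSeq promoter table (GRCm38.p6, 250 bases before to 50 after the start) held 7 of the 10 genes, without Ccnd1, Ccnd2 and Ccne2. An E2F motif, any of TTTCCCGC, TTTCGCGC, TTTGCCGC or TTTGGCGC on either strand, was in Cdc25a and Cdk2 and in 2.26% of all 32851 promoter windows. Of these, Cdc25a was 2.43 times higher at week-3 and Cdk2 was lower, with 0.79 times its week-0 level. The E-box CACGTG, bound by Myc among others, was in Cdk4, Cdk6 and Cdk7 and in 7.15% of windows. A motif of STAT factors, TTCNNNGAA, was in none of the 7 and in 8.3% of windows. The GC box GGGCGG was in 6 of the 7, not in Cdk6, and in 35.7% of windows. Windows around the matches in genes that moved apart are shown 5′ to 3′ on the gene's strand with the motif in capitals. They are chr9:109875502-109875529 (plus strand) for Cdc25a and chr10:128705174-128705201 (minus) for Cdk2, both with an E2F motif, and chr5:3343663-3343690 (plus) for Cdk6 and chr10:127063514-127063541 (plus) for Cdk4, both with an E-box. The Cdk4 site shown begins at -11 from the start site. The promoter of Cdk4 also held the E-box at -172, -118 and -98.
Cdc25a: gtgaattccgTTTGGCGCcaactaggaa
Cdk2: accaggaactGCGGGAAAgttgtgcagc
Cdk6: tctgcggcccCACGTGggtgaacccccg
Cdk4: gggtgaagatCACGTGtccagaacgtcc

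Other genes of the same pathway were taken from lists of 72 genes, of which 69 had at least 10 reads. Of these 69, 4 were at least 2 times higher at week-3, against 11.9% of all genes, and 5 at least 2 times lower, against 17.9%. Both are smaller shares than among all genes. The whole interval lay above 0 for 25 of the 69 and below 0 for 15, against 31.7% and 27.3% of all genes. Their median log2 ratio was 0.16, where that of all genes was 0.05. CDK inhibitors had a median of -0.78 over 5 measured genes. Cdkn1a (p21), which blocks Cdk2, went from 14243 reads and an FPKM of 729 to 1439 reads and an FPKM of 120, a log2 ratio of -2.60 (-2.68 to -2.52). The immediate-early genes, which respond to stress as Cdkn1a does, were lower too (7 of 8 by at least 2 times), and their part in this was not tested. Cdkn2d (p19), an inhibitor of Cdk4 and Cdk6, had -0.78 (-0.95 to -0.62), and Cdkn2c (p18) had -0.41 (-1.19 to 0.33). Cdkn1c (p57), an inhibitor linked to stem cell rest, went from 19 to 3 reads, at -1.95 (-4.35 to -0.19). Cdkn1b (p27) was at 0.22 (-0.04 to 0.49), and it is the only inhibitor measured with a ratio above 0.

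Among pocket proteins and E2F factors, none of 13 genes passed 2 times, where 11.9% of all genes were higher and 17.9% lower by that limit. The median was -0.26. E2f2 had the highest log2 ratio, 0.91 (0.42 to 1.41), and E2f3 the lowest, -0.68 (-1.13 to -0.25). E2f1 was at 0.61 (0.22 to 0.995) and Rb1, with 34 and 18 reads, at -0.21 (-1.12 to 0.66). The activating E2F factors thus went in different directions. Among 17 S-phase genes, 2 were at least 2 times higher, near the 11.9% of all genes, and the median was 0.22. The whole interval lay above 0 for 11 of the 17 and below 0 for 1, against 31.7% and 27.3% of all genes. Rrm2, a subunit of ribonucleotide reductase, rose most, from an FPKM of 10.4 to 45.5 and a log2 ratio of 2.12 (1.91 to 2.34), and Cdc6, which loads the replicative helicase, had 1.43 (1.05 to 1.82). Ccna2, the cyclin that follows cyclin E on Cdk2, was the lowest, with -0.69 (-0.86 to -0.52).

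Mitotic cyclins and kinases had the highest median of the lists, 0.70 over 8 genes, with Ccnf at 1.75 (1.36 to 2.15) and Ccnb2 at -0.20 (-0.35 to -0.05). The whole interval lay above 0 for 6 of these 8 and below 0 for 1, against 31.7% and 27.3% of all genes. Of the 8 genes for cyclin turnover, with a median of 0.45, Skp2, which marks Cdkn1b for degradation, was highest at 1.15 (0.44 to 1.87) from 31 and 42 reads. Ambra1, which directs the degradation of D cyclins, was lowest, with -0.99 (-1.28 to -0.71). Cks1b, a small subunit bound to Cdk2, was at 0.20 (0.11 to 0.30) and Cks2 at -0.29 (-0.43 to -0.15). Among the kinases and phosphatases of CDK phosphorylation, Cdc25c was at 0.88 (0.47 to 1.29) and Wee1 at -0.39 (-0.78 to -0.0073). Thus Cdc25a was the only gene among Cdc25a, Cdc25b and Cdc25c that passed 2 times, with Cdc25b at -0.29 (-0.70 to 0.11).

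**Figure D5:**
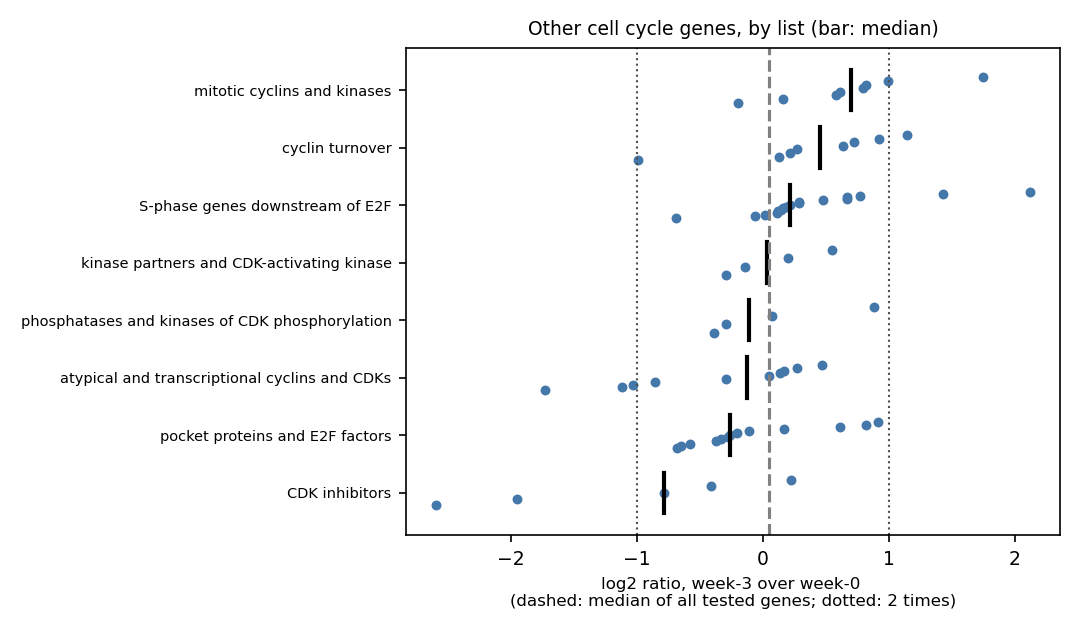
log2 ratio, week-3 over week-0, of each of the 69 other cell cycle genes, grouped by list, with the list's median as a bar. The median runs from -0.78 for CDK inhibitors to 0.70 for mitotic cyclins and kinases; the dashed line is the median of all genes, 0.05, and dotted lines mark 2 times.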

How the data were processed

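RNA-seq counts and FPKM of 1 library per time point were analysed. The authors prepared cDNA with a SMARTer kit for low input, and after paired-end sequencing and trimming aligned the reads to GRCm38 with TopHat2 2.0.9. For each gene, the authors deposited counts, whole numbers of reads without normalization, and FPKM, scaled by exon length and library. The counting tool and annotation release are not given in the sources used here.

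Genes with at least 10 reads over both libraries were compared. With 1 library per time point no p-value is given: a gene counts as changed past an FPKM ratio of 2 or 0.5. The authors name edgeR for their comparison. It needs an assumed variation here and was run (version 4.0.16) as an alternative, as were DESeq2 1.42.0 size factors. Intervals came from scipy 1.17.1, in Python 3.11.15. The intervals and the edgeR exact test were tested on simulated data, and the other procedures were not. Annotation is GENCODE M21, with the same coordinates for 7 of the 10 genes. Named were the 10 genes, per list the genes with the highest and lowest ratio, and the inhibitors, E2F factors and partners that bind the 10. Cdc6, Cdkn1c and Cdc25b were added after their values were seen, as were 8 of the pairs. With 2 libraries, genes of like pattern were not sought. The members and lists were chosen with earlier results of these data known.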

Additional observations from a re-analysis of the deposited data

How the results depend on the processing

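The number of all genes at least 2 times higher at week-3, 1633, was 3920 without a filter on reads, 3362 with a limit of 1.5 times, 523 with the whole counting interval beyond 2 times and 52 with edgeR's exact test at an assumed biological coefficient of variation (BCV) of 0.4. For genes at least 2 times lower, 2455, these numbers were 5120, 3692, 993 and 195. Of the 10 G1 genes, 5 were higher with the limit of 1.5 times and 0 with a BCV of 0.4, and 0 were lower with the whole interval beyond 2 times or a BCV of 0.4. The other alternatives, which were TMM and median-of-ratios scaling, filters on low values and edgeR with a BCV of 0.1, kept Ccne1, Ccne2 and Cdc25a as higher and Ccnd3 as lower. With the whole interval beyond 2 times, Ccne1 and Ccne2 remained. The log2 ratio moved beyond its counting interval for Cdk4 and Cdk6 with either scaling (Cdk6 to 0.70 with TMM) and for Ccne2 with a pseudocount of 1 (0.88), which also turned Ccne2 over Ccne1 from 0.36 to -0.45. The ratio of Cdk6 to Cdk4 at week-0 fell below 1, to 0.74, with merged GENCODE M21 exons, chosen after seeing the data. No paired analysis was possible because each time point has 1 library. For Ccne2, with 21 and 49 reads, counting error limits the size of the change most.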

Other observations

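Of 10 atypical and transcriptional cyclins and kinases with at least 10 reads, 3 were at least 2 times lower at week-3, against 17.9% of all genes, and 0 were at least 2 times higher, against 11.9%. Their median log2 ratio was -0.12, where that of all genes was 0.05. Ccnt1, the cyclin of the elongation kinase Cdk9, went from 1107 reads and an FPKM of 13.5 to 204 reads and an FPKM of 4.06, a log2 ratio of -1.73 (95% counting interval -1.95 to -1.51). Cdk9 itself was at 0.05 (-0.17 to 0.26). Ccnk, the cyclin of Cdk12 and Cdk13, had -1.12 (-1.61 to -0.66), whereas Cdk12 was at 0.13 (-0.21 to 0.47) and Cdk13 at -0.29 (-0.69 to 0.096). Ccng2, an atypical cyclin linked to arrest, had -1.03 (-1.47 to -0.60). Cdk8, a kinase of the Mediator complex, had the highest ratio, 0.47 (-0.027 to 0.96). Genes other than Ccnt1 and Cdk8 were chosen after their values were seen.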
